A study of Mus musculus with 21 samples.

Results

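The genes described here are 10 imprinted genes with known roles in growth and in mesenchymal progenitors: Igf2, Dlk1, Grb10, Cdkn1c, Plagl1, Peg3, Ndn, Mest, H19 and Meg3. They were taken by symbol from a count table of 55341 genes, and all 10 were found in it and on the GRCm38 assembly. Fibro-adipogenic progenitors (FAPs) are Pdgfra-positive stromal cells of skeletal muscle that divide after injury and can form fat or fibrous tissue. Adult mice of both groups carried floxed Prdm16 on both alleles (Prdm16 Flox/Flox). The group called Prdm16 also carried a tamoxifen-inducible Cre on one Pdgfra allele (Cre-ERT/+), and the group called WT had Pdgfra +/+ and no Cre. Both groups were given tamoxifen on 5 days, and after 7 further days their muscle was injured with cardiotoxin. FAPs sorted 5 days after injury were then grown on ECM-coated dishes for 4 to 5 days, so the values describe cultured cells and not the tissue. RNA was counted in 3 WT and 2 Prdm16 libraries, domains of the histone mark H3K9me2 were given for 3 libraries of each group, and LaminB1 domains, LaminB1 being part of the nuclear lamina, for 1 library of each. Whether replicates came from separate animals is not in the labels, so p-values reflect only the spread among the samples at hand, which may be technical.

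Imprinted genes are read from the copy inherited from a single parent, and DNA methylation laid down in the egg or sperm tells the copies apart. Many act on growth, with paternally expressed genes such as Igf2 and Dlk1 often promoting it and maternally expressed genes such as Grb10, Cdkn1c and H19 often restraining it. In mesenchymal cells Dlk1, also called Pref-1, is known for holding back fat cell formation, and Peg3, also called Pw1, is known as a marker of stem and interstitial cells of muscle. The files carry no allele information, so every value below is the sum over both parental copies.

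Sequences are shown for the only members found wholly inside an H3K9me2 domain and for the small RNAs that other members host. Peg3 and Grb10 each lay in a domain in 1 library. The window around the start of each, 250 bases before to 50 after in the RefSeq table for GRCm38.p6, is given with every CpG in capitals. CpG is the dinucleotide that carries imprint methylation, but methylation was not measured here, so whether these windows carry any is not known from these data. The Peg3 window at chr7:6730370-6730669 on the minus strand held 13 CpGs. The outer of the Grb10 windows, at chr11:12037371-12037670 on the minus strand, held 45 CpGs and 80.0% G and C, against medians of 7 CpGs and 52.7% over 32851 windows of the same length. Its inner window, at chr11:12027922-12028221, held 9 CpGs and 52.3% G and C.
Peg3: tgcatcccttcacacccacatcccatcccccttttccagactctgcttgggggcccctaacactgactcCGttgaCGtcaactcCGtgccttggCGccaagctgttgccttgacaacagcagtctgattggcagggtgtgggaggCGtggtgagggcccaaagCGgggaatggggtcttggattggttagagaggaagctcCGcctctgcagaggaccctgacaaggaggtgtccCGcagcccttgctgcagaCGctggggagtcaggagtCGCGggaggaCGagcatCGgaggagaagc
Grb10: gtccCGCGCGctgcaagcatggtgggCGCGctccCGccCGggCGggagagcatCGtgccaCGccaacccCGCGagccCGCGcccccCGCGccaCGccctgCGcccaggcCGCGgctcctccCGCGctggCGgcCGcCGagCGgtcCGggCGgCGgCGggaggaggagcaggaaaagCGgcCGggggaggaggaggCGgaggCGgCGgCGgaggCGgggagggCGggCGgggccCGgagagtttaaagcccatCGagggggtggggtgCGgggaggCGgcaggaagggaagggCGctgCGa
Windows were given for 8 of the 10 genes, 15 windows in all, some of them overlapping. The letters TGCCGC, the core of the site bound by ZFP57, a protein that protects imprint methylation, were searched on both strands. They stood in 6 of the 15 windows, belonging to Meg3, Igf2, Mest, Plagl1 and Grb10, and in 11.6% of all windows. The Mest windows at chr6:30737800-30738099 and chr6:30737803-30738102 overlap and hold the same sites, so these were counted in both. The letters contain a CpG, and the matching windows held 13 to 45 CpGs against the median of 7. The shares are therefore not like for like. A match of letters is a description of the window and not a bound site.

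Meg3, H19, Igf2 and Mest also contain microRNA genes. The mature 5p strands are printed with the seed, bases 2 to 8, in capitals, because these RNAs come from the same loci as the transcripts whose levels are given below.
miR-770-5p (Meg3, chr12:109563710-109563731, plus strand): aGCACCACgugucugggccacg
miR-675-5p (H19, chr7:142577112-142577133, minus strand): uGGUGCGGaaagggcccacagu
miR-483-5p (Igf2, chr7:142654968-142654989, minus strand): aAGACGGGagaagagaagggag
miR-335-5p (Mest, chr6:30741314-30741336, plus strand): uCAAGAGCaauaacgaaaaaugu
No seed was shared among them. The rows of Mir770, Mir675, Mir483 and Mir335 in the count table held 0 counts over the 5 libraries, which were made from polyadenylated RNA. The RNA values below therefore describe the long transcripts alone.

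The RNA libraries held 5839587 to 10657791 counts. FAP markers (10 genes, none at 0) summed to 3552 to 7266 CPM (counts scaled to a common library size), lowest in the library labelled WT replicate 3. Myoblast markers summed to 274 to 668 CPM, highest in that same library, and endothelial and macrophage markers to 5.29 to 8.17 CPM, with Adgre1 at 0 in all. Pericyte and smooth muscle markers summed to 330 to 585 CPM and Schwann cell markers to 4.20 to 13.0 CPM. The sum of tenocyte markers (5 genes, none at 0) differed with the labels, at 51.6, 49.02 and 43.9 CPM in WT and 83.5 and 162 CPM in Prdm16. Most of it was Thbs4, at 37.1, 35.1 and 29.9 CPM in WT and 66.2 and 125 CPM in Prdm16. Both Prdm16 libraries lay above every WT library for 2 of the 5, Thbs4 and Mkx, and below for 1, Scx. Over all genes tested, 8.83% lay above and 8.96% below in this way. Separation was not limited to tenocyte markers. Of 10 FAP markers 3 lay above, and of 4 endothelial markers tested 1 lay above and 1 below. The part of these genes in the results below was not tested. The authors' comparison table did not match these labels. DESeq2 gave a p within 1% of theirs for 12699 of 12699 genes when WT replicate 3 and Prdm16 replicate 1 were exchanged, and for 146 genes (1.15%) as labelled. Prdm16 itself, the targeted gene, had 16.4, 13.5 and 5.51 CPM under the WT label and 10.6 and 15.3 CPM under the Prdm16 label, so its counts did not separate the groups. Reads from undeleted exons count too, so they do not by themselves check the deletion. Ifit3, an interferon-induced gene, had 20.9 CPM in WT replicate 3 and 22.2 CPM in Prdm16 replicate 2, against 490 to 767 CPM in the other libraries. Libraries are therefore named by their labels, and the fold change of each member is also given with the 2 doubtful libraries exchanged. These groupings share libraries and are not independent of each other.

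By the labels, none of the 10 genes passed the test between the groups. In edgeR's quasi-likelihood test, 0 of the 10 had an adjusted p under 0.05, beside 0 of 15240 genes tested (0%), and all 10 had an adjusted p of 0.9996. With an unadjusted p under 0.05 there were 0 members, against 378 genes in all (2.48%). Without the low-count filter there were 4 members among 1103 of 32193 genes, and with the replicate block 2 among 904, none of the members past the adjusted threshold. DESeq2 called 0 members and 1 gene. Set as Prdm16 over WT, the log2 fold change lay above 0 for 3 members and below 0 for 7, with a median of -0.30, where 49.9% of all genes tested lay below 0 and their median was 0.00. All 10 members passed the filter on low counts. The plot of levels by library shows how widely some members varied within a group. A range of at least 1 on the log2 scale over the 5 libraries was found for 7 of the 10, against 41.3% of all genes.

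**Figure D1:**
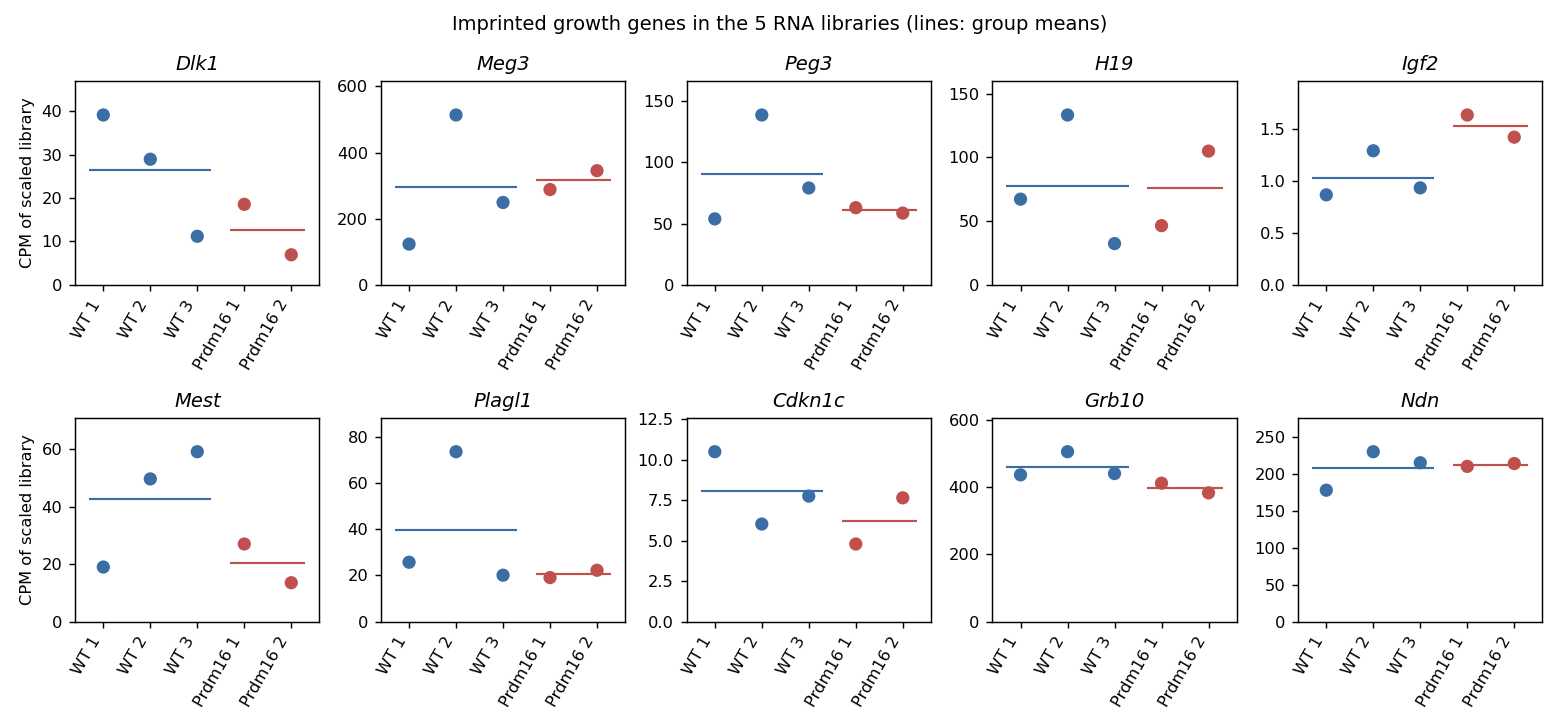
Level of each gene (CPM of scaled library, linear axes from 0) in the 3 libraries labelled WT (blue) and the 2 labelled Prdm16 (red), with group means as lines. WT replicate 2 is the highest library for 6 of the 10 genes, and Dlk1, Meg3, H19, Mest and Plagl1 spread 3.86-fold or more over the 5 libraries.

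Igf2, the growth factor ligand of the set, was counted at 0.87, 1.29 and 0.93 CPM in the WT libraries and at 1.63 and 1.42 CPM in the Prdm16 libraries. Both Prdm16 libraries lay above every WT library, as they did for 8.83% of all genes, but the counts behind them were only 8 to 14. The 95% Poisson intervals, which cover counting error only, ran from 0.40 to 1.64 CPM in WT replicate 1 and from 0.89 to 2.74 CPM in Prdm16 replicate 1. They overlapped, so an Igf2 difference of the size seen was not detectable at this depth. Its fitted log2 fold change was 0.59 (SE 0.59). With the doubtful libraries exchanged it was -0.13. H19, the maternally expressed long RNA that lies 72.6 kb from Igf2, had 67.2, 133 and 32.4 CPM in WT and 46.5 and 105 CPM in Prdm16. The groups overlapped, with the highest and the lowest value both in WT libraries, and the group means were 77.6 ± 51.3 (SD, n = 3) and 75.7 ± 41.4 (SD, n = 2). Its log2 fold change of -0.04 (SE 0.66) became 0.60 when WT replicate 2 was left out and 0.05 without both doubtful libraries. It was -0.73 without Prdm16 replicate 2 and -0.27 in the exchanged grouping. H19 was counted in every library at 347 to 930 counts while Igf2 stayed at 14 counts or fewer.

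Dlk1, the transmembrane relative of the Notch ligands, had the widest range of the set. Its level was 39.2, 29.0 and 11.2 CPM in WT and 18.6 and 6.93 CPM in Prdm16. WT replicates 1 and 2 were high and the lowest library was Prdm16 replicate 2, yet Prdm16 replicate 1 lay above WT replicate 3, so the groups overlapped. By the labels its log2 fold change was -1.03 (SE 0.62), and leaving out single libraries moved it from -0.50 without Prdm16 replicate 2 and -0.64 without WT replicate 1 to -1.95 without Prdm16 replicate 1. Exchanging the doubtful libraries gave -1.65 (SE 0.37, edgeR adjusted p = 0.083), and leaving both out gave -2.32. In the latter the Prdm16 group is 1 library, replicate 2, which is assumed to vary as the 2 WT libraries do. That library had 2.66 CPM of Xist, the RNA of the inactive X, against 335 to 526 CPM in the other RNA libraries. In that fit the group and the difference in Xist cannot be told apart. In the exchanged grouping the pair of libraries lay below the other 3, as it did for 14.1% of all genes, and 1.19% of all genes were called, 1.04% as lower, but no member was. Without both libraries 0.614% of genes and no member were called. The authors' deposited table gives Dlk1 a log2 fold change of -1.46 and an adjusted p of 0.0087. It calls Dlk1 downregulated under its own limits of 0.5 and 0.1, and its adjusted p is also under the 0.05 used here. That table gives an adjusted p for 6237 genes, where edgeR adjusted over 15240. Its fold changes were smaller in size than edgeR's in the exchanged grouping for every member, as for Plagl1 at -0.25 against -0.90, so they are not directly comparable. Dlk1 is the only member called there, among 4 members with an adjusted p, in a table that calls 7.55% of its 6237 genes with one, 5.58% as lower. The libraries low in Dlk1, WT replicate 3 and Prdm16 replicate 2, are the ones low in Ifit3. Adipocyte markers summed to 13.2 and 26.5 CPM there against 36.2 to 54.0 CPM in the others. Most of that sum was Fabp4, Lep was at 0 in all, and Cidec, at 5 counts or fewer, did not share the pattern. The part of Ifit3 or of these markers in the Dlk1 values was not tested. In these bulk libraries, for Dlk1 as for every member, fewer expressing cells and less RNA per cell cannot be told apart.

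Meg3, the maternally expressed long RNA that starts 77.7 kb beyond Dlk1, did not follow it. It had 123, 513 and 249 CPM in WT and 288 and 345 CPM in Prdm16. The lowest Meg3 library, WT replicate 1, was the highest for Dlk1, and both Prdm16 libraries lay inside the WT range. The log2 fold change was 0.10 (SE 0.58), and leaving out single libraries moved it from -0.28 without WT replicate 1 to 0.77 without WT replicate 2. The exchanged grouping gave -0.05. Other transcripts of the same imprinted locus varied less. Rian, a long RNA that hosts small nucleolar RNAs, had 150, 241 and 201 CPM in WT and 172 and 180 CPM in Prdm16, a 1.60-fold range against 4.17-fold for Meg3 and 5.65-fold for Dlk1. Mirg, a microRNA host, ranged 1.67-fold. Rtl1, a retrotransposon-derived gene whose span overlaps that of Meg3, ranged 1.85-fold, and without strand in the libraries the shared stretch cannot be split between them. Dio3, the thyroid hormone inactivating deiodinase at the far end of the locus, had 21.5, 52.5 and 14.8 CPM in WT and 19.6 and 52.4 CPM in Prdm16, with its high libraries WT replicate 2 and Prdm16 replicate 2 being the same that were high for H19.

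Grb10, the adaptor protein that restrains insulin and IGF receptor signalling, was steady. It had 437, 506 and 441 CPM in WT and 412 and 384 CPM in Prdm16. Both Prdm16 libraries lay below every WT library, as for 8.96% of all genes, and the whole range was 1.32-fold. Its log2 fold change was -0.21 (SE 0.17), from -0.29 to -0.14 when single libraries were left out. With the doubtful libraries exchanged the groups overlapped and it was -0.13. Cdkn1c, the cell cycle inhibitor p57, had 10.5, 6.02 and 7.74 CPM in WT and 4.79 and 7.64 CPM in Prdm16. The groups overlapped, the log2 fold change was -0.39 (SE 0.42), and the exchanged grouping gave 0.11. It was -0.11 without Prdm16 replicate 1, -0.18 without WT replicate 1 and -0.75 without Prdm16 replicate 2. Kcnq1ot1, the paternally expressed long RNA of the Cdkn1c locus, had 89.1, 209 and 254 CPM in WT and 158 and 225 CPM in Prdm16. Its lowest library, WT replicate 1, was the highest for Cdkn1c. Over the remaining libraries both genes had the same order, from WT replicate 3 down to Prdm16 replicate 1.

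Plagl1, also called Zac1, is a zinc-finger transcription factor of the imprinted growth network. Its level was 25.7, 73.5 and 20.1 CPM in WT and 19.03 and 22.2 CPM in Prdm16. WT replicate 2 stood alone above the other 4 libraries, which spanned 19.03 to 25.7 CPM. The log2 fold change was -0.94 (SE 0.59), and without WT replicate 2 it was -0.15. The exchanged grouping gave -0.90. Peg3, a zinc-finger protein, showed the same high library, with 53.9, 139 and 79.1 CPM in WT and 63.0 and 58.6 CPM in Prdm16. The lowest Peg3 value was also a WT library, so the groups overlapped, and the log2 fold change was -0.57 (SE 0.38). Without WT replicate 2 it was -0.13, and in the exchanged grouping -0.30. Zim1, the maternally expressed neighbour of Peg3, also had its highest value in WT replicate 2, at 6.45 CPM, and its lowest in WT replicate 1, at 1.44 CPM.

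Mest, a membrane protein of the hydrolase fold family, was the member with the lowest unadjusted p in edgeR's fit over all genes (0.089). It had 18.95, 49.6 and 59.1 CPM in WT and 27.0 and 13.5 CPM in Prdm16, with means of 42.5 ± 21.0 (SD, n = 3) and 20.2 ± 9.52 (SD, n = 2). WT replicates 2 and 3 were high, but WT replicate 1 lay between the Prdm16 libraries. The log2 fold change of -1.06 (SE 0.53) became 0.21 when the doubtful libraries were exchanged, and ran from -1.68 without Prdm16 replicate 1 to -0.65 without Prdm16 replicate 2. The highest Mest library, WT replicate 3, also had the highest Myod1, the master regulator of myogenic cells, at 29.4 CPM against 5.10 to 16.0 CPM elsewhere. The other libraries did not share this order. Myod1 was 8.60 CPM in WT replicate 2, also high for Mest, and 16.0 CPM in Prdm16 replicate 2, the lowest for Mest. Any part of Myod1 in the Mest values was not tested. Copg2, whose span overlaps the end of Mest, had 30.5 to 46.0 CPM. Ndn, the MAGE family protein necdin, was the steadiest member, with 178, 231 and 216 CPM in WT and 211 and 215 CPM in Prdm16. Its range was 1.29-fold, the groups overlapped and the log2 fold change was 0.03 (SE 0.19), or 0.06 in the exchanged grouping. Of the tested neighbours in its locus, Ube3a (79.0 to 94.1 CPM) and Mkrn3 (2.98 to 3.55 CPM) ranged 1.19-fold each. Snrpn (8.47 to 16.0 CPM) ranged 1.88-fold and Peg12 (22.4 to 43.0 CPM) 1.92-fold. Magel2 and Snurf, also of that locus, are listed with 0 counts in all 5 libraries. How reads shared by overlapping genes were counted is not known here, so a 0 need not mean no transcript.

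**Figure D2:**
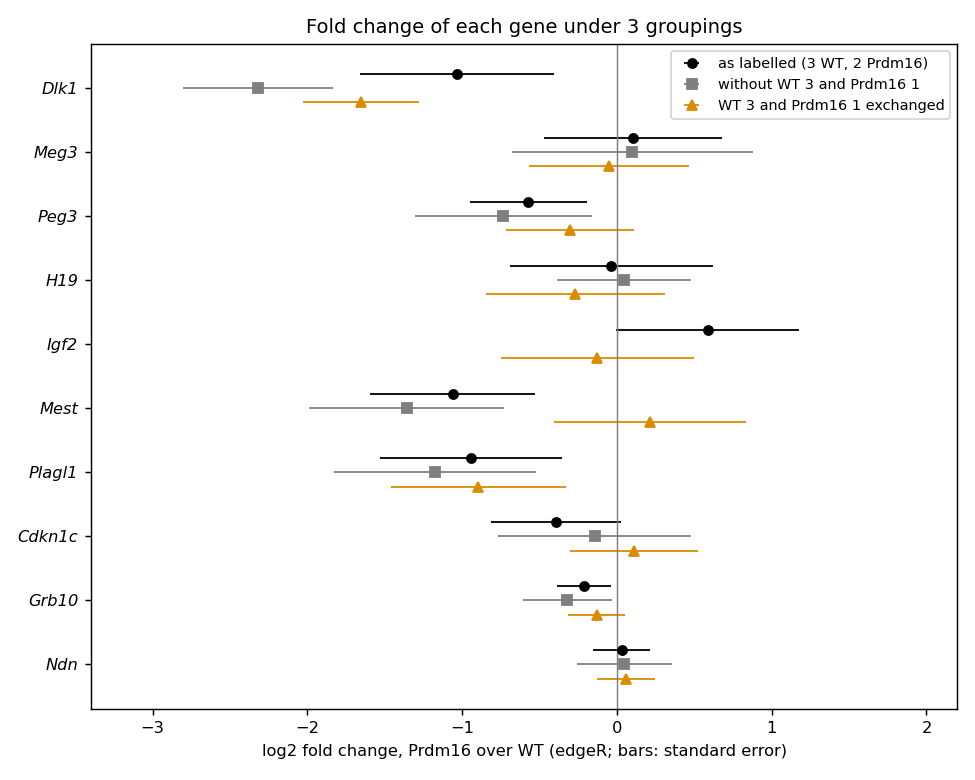
Fold change of each gene on the log2 scale (Prdm16 over WT, edgeR) with its standard error, as labelled (black), without WT replicate 3 and Prdm16 replicate 1 (grey) and with these 2 exchanged (orange). Dlk1 lies at -1.03, -2.32 and -1.65, Mest changes sign when the libraries are exchanged, and Igf2 has no grey point because it did not pass the filter there.

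The members differed among themselves in the library that was highest. WT replicate 2 was highest for 6 of the 10 (Meg3, Peg3, H19, Plagl1, Grb10 and Ndn), WT replicate 1 for Dlk1 and Cdkn1c, WT replicate 3 for Mest and Prdm16 replicate 1 for Igf2. Likeness was measured as the root mean square difference of centred log2 CPM over the 5 libraries, against 10446 genes that averaged 5 CPM or more, for the 7 members that ranged by at least 1. The genes most like Dlk1 were Lgals9 (0.14), which encodes galectin-9, Khk (0.16), which encodes the fructose kinase ketohexokinase, and the homeobox gene Alx4 (0.24), while the nearest other member, Grb10, ranked 2836. Those most like H19 were Ogn (0.15), Adamts5 (0.19) and Abi3bp (0.21), all encoding secreted proteins. Meg3 was nearest to Dleu2 (0.19), March3 (0.22) and Tmem243 (0.22), and Peg3 to Il15ra (0.13), Carmn (0.14) and Cirbp (0.14). Cdkn1c was nearest to Hccs (0.04), Trim59 (0.05) and Ccne1 (0.09). Mest had no close match, the nearest being P2ry10b (0.36), Entpd1 (0.41) and Cxcl1 (0.44). Plagl1 was nearest to Ltc4s, Pabpc4l and Prl2c5 (0.29 each), and Peg3 ranked 37 for it.

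**Figure D3:**
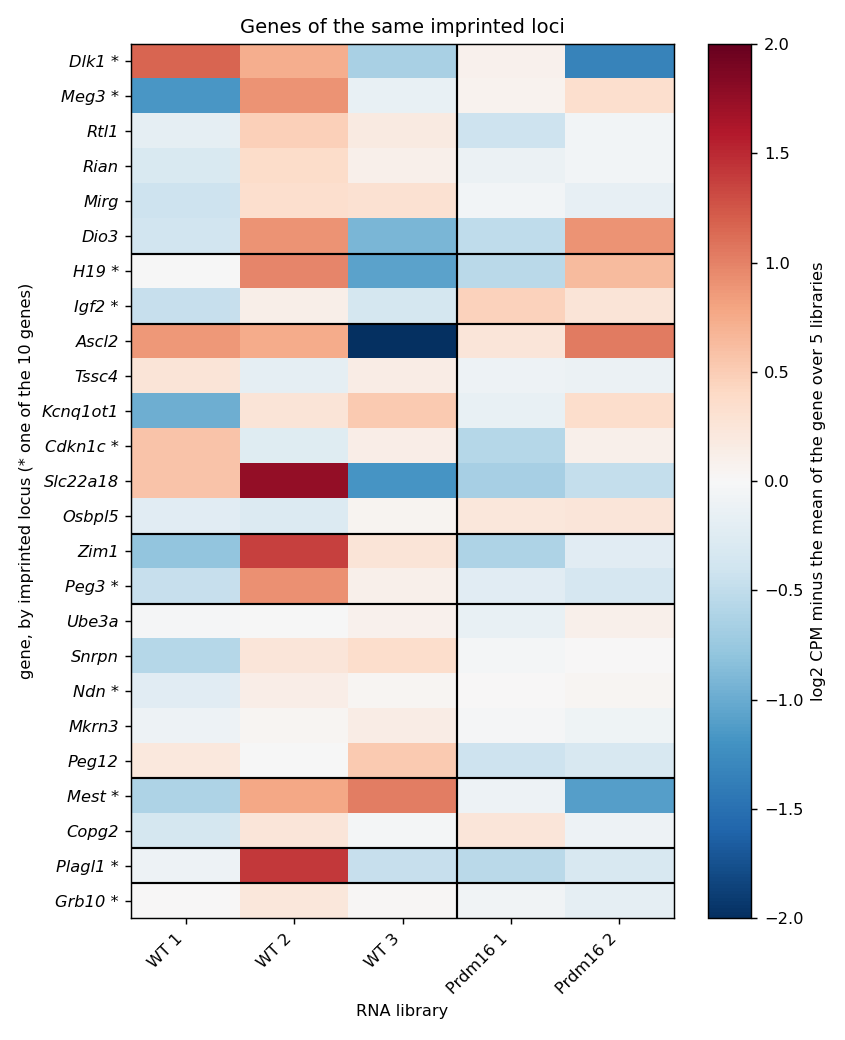
Log2 CPM of each gene minus its mean over the 5 RNA libraries (red above, blue below), with genes grouped by imprinted locus between horizontal lines and the 10 members starred; the vertical line separates the libraries labelled WT from those labelled Prdm16. In the Dlk1 locus the Dlk1 and Meg3 rows have opposite colours in WT replicate 1, and the Rian and Mirg rows stay pale.

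Other imprinted genes were read from lists. Of 22 other paternally expressed genes 19 were tested, 6 with a log2 fold change above 0 and 13 below, with a median of -0.08, and none was called. Nearest to a call were Peg12, a gene of the Ndn locus, and Rasgrf1, a Ras exchange factor. Peg12 had 34.6, 29.7 and 43.0 CPM in WT and 22.4 and 23.8 CPM in Prdm16. For Peg12 both Prdm16 libraries lay below every WT library, as for 8.96% of all genes tested. Its log2 fold change was -0.63 (SE 0.25, edgeR adjusted p = 0.9996) and 0.22 with the doubtful libraries exchanged. Rasgrf1 had 1.44, 0.57 and 1.40 CPM in WT and 2.22 and 4.26 CPM in Prdm16, from 4 to 24 counts. Nap1l5 (1.29) and Zdbf2 (1.21) followed by p, also with few counts. With the exchange Rasgrf1 went from 1.45 to 0.92, Nap1l5 to 0.34 and Zdbf2 to 1.13. Peg10, a retrotransposon-derived gene, had 67.0, 101 and 22.2 CPM in WT and 43.0 and 24.2 CPM in Prdm16, so the same pair of libraries was low as for Dlk1. The authors' deposited table calls it downregulated at -1.45. Of 20 other maternally expressed genes 15 were tested, 5 above 0 and 10 below, with a median of -0.16 and none called. Osbpl5 (0.38), Tfpi2 (0.48), Ppp1r9a (-0.95) and Commd1 (-0.30) had the lowest p of that list. The exchange gave them 0.23, 0.19, -0.67 and -0.20.

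The IGF axis, in which Igf2 acts through receptors, binding proteins and substrates, had no gene called by the labels either. Of 17 genes 15 were tested, 8 above 0 and 7 below, with a median of 0.01. Igfbp7, a secreted binding protein, had 100, 76.4 and 76.9 CPM in WT and 60.6 and 67.5 CPM in Prdm16. Its Prdm16 libraries both lay below every WT library, as for 8.96% of all genes tested. The log2 fold change was -0.40 (SE 0.21), or -0.13 with the exchange. Irs1 (0.28) and Irs2 (-0.67), the docking proteins of the insulin and IGF receptors, and Igfbp5 (0.73) followed by p, with 0.22, -1.08 and 1.32 under the exchange. Igf1, the other IGF ligand, had 48.7, 69.9 and 10.4 CPM in WT and 21.1 and 38.0 CPM in Prdm16. With the doubtful libraries exchanged, Igf2bp1, an RNA-binding protein that binds Igf2 transcripts, was called at 2.21 (SE 0.41, edgeR adjusted p = 0.031). It had 9.52 CPM in WT replicate 3 and 8.53 CPM in Prdm16 replicate 2, against 1.52 to 2.44 CPM in the other libraries. The authors' deposited table calls Igf2bp1 (1.95) and Igfbp5 (1.02) upregulated and Irs2 (-0.88) downregulated.

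H3K9me2, a mark of repressed chromatin, is given as broad domains per library, covering 635.0 to 1016.8 Mb in WT and 574.6 to 841.1 Mb in Prdm16. Most of the 10 genes lay outside them in every library. No domain touched 7 of the 10 genes in any of the 6 libraries, where 91.2% of located genes were untouched. At least 0.5 of the gene body was covered for 2 members in 1 or more libraries, against 6.92% of genes, and for no member in all 6 (0.663% of genes). Both were covered in WT replicate 1 alone, the library with the most covered sequence. That cover was met by 4.8%, 2.73% and 3.71% of genes in WT replicates 1 to 3 and by 2.62%, 3.39% and 2.94% in Prdm16 replicates 1 to 3. For no member did the cover in every library of one group lie beyond that of the other, as it did for 0.214% of genes downwards and 0.155% upwards. With 3 libraries a group the smallest exact two-sided permutation p is 0.1, so no test was made.

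Peg3 (chromosome 7, 6703892 to 6730462) lay wholly inside a 279 kb domain in H3K9me2 WT replicate 1. In WT replicate 2, Prdm16 replicate 1 and Prdm16 replicate 2 a domain began 4.5, 10.5 and 1.5 kb beyond its start, on the upstream side. In WT replicate 3 and Prdm16 replicate 3 the nearest was over 2 Mb away, at 2287.9 and 2278.9 kb. Libraries of both groups thus had the domain edge near the Peg3 start and libraries of both groups lacked it. Peg3 was also wholly covered in the LaminB1 library of WT, by a 664 kb domain, and uncovered in that of Prdm16, where the nearest domain ended 11.9 kb away. LaminB1 cover of at least 0.5 was met by 1.5% of genes in WT, by 0.604% in Prdm16 and by 1.6% in either, against 1, 0 and 1 members. Cover in WT alone was found for 0.995% of genes, the WT library covering 693.4 Mb and the Prdm16 library 330.6 Mb, and with 1 library a group the difference has no replicate check. Its neighbours shared the region: Zim1 was wholly covered in the same H3K9me2 library, and Usp29 at 67.18% to 76.67% in 4 libraries.

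Grb10 (chromosome 11, 11930499 to 12037428) lay inside a 7359 kb domain in H3K9me2 WT replicate 1. In the other WT libraries the nearest domain was 146.5 and 152.5 kb away, and in the Prdm16 libraries 191.5, 7.6 and 553.6 kb. Within 1 Mb of the centre of the gene, domains lay on both sides in WT replicate 3 and Prdm16 replicates 1 and 2, on the lower-coordinate side only in WT replicate 2 and on the other side only in Prdm16 replicate 3. The cover of the gene with 1 Mb on each side was 100%, 37.02% and 60.7% in WT and 53.08%, 87.61% and 21.19% in Prdm16. No LaminB1 domain touched Grb10, and the nearest were 158.5 kb away in WT and 182.5 kb in Prdm16.

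Igf2 (chromosome 7, 142650768 to 142666816) was the third member touched. A 72 kb domain of Prdm16 replicate 1 covered 32.61% of it, starting 5.9 kb upstream of H19 (142575530 to 142578146) and ending inside Igf2. Another domain began 10.2, 10.2 and 13.2 kb upstream of the Igf2 start in WT replicates 1 to 3 and 10.2 kb upstream of it in Prdm16 replicate 1, so this domain was found in both groups. Prdm16 replicates 2 and 3 had none within 783.8 and 3981.8 kb. The cover of Igf2 with 50 kb on each side was 34.31%, 34.31% and 31.72% in WT and 81.9%, 0% and 0% in Prdm16, so the WT libraries lay between the Prdm16 libraries. Cdkn1c (143458339 to 143461059), 791.5 kb further along, had domains 16.3 kb away in WT replicate 2 and 1.3 kb away in Prdm16 replicate 1, and none within 565.3 kb in the others.

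**Figure D4:**
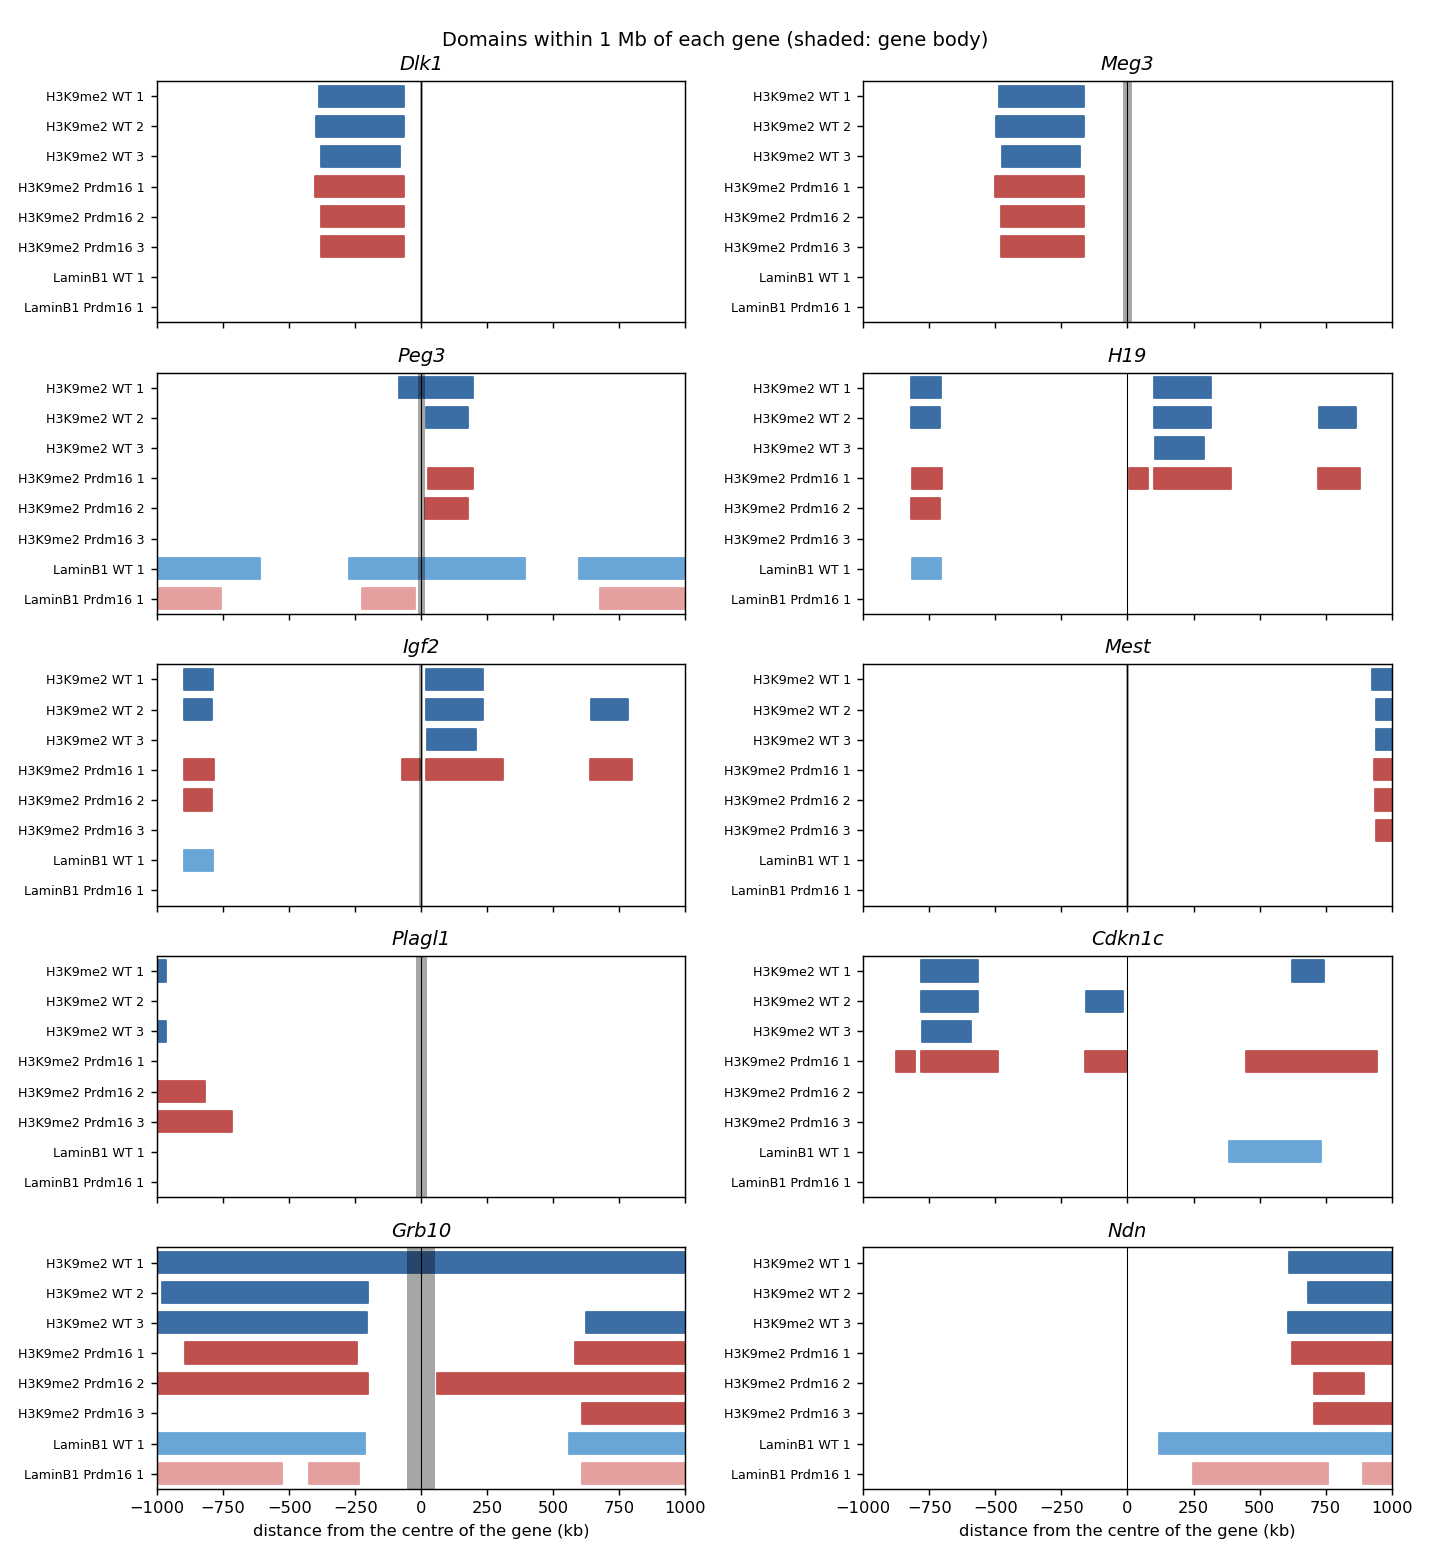
Domains of H3K9me2 (dark) and LaminB1 (light) in WT (blue) and Prdm16 (red) libraries within 1 Mb of the centre of each gene (horizontal axis in kb), with the gene body shaded. The block left of Dlk1 and Meg3 recurs in all 6 H3K9me2 libraries, while Peg3 and Grb10 are covered in H3K9me2 WT replicate 1 alone.

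Dlk1 (chromosome 12, 109452485 to 109463336) and Meg3 (109540996 to 109571729) stood next to a domain present in all 6 H3K9me2 libraries. It spanned 297 to 336 kb and ended 60.5 kb before Dlk1 in 5 libraries and 75.5 kb before it in WT replicate 3, so its edge differed by 5 steps of the 3 kb grid at most. LaminB1 domains lay 1804.5 kb from Dlk1 in WT and 1904.5 kb in Prdm16. Mest (chromosome 6, 30733506 to 30748466) likewise had a nearest edge at 919.5 to 934.5 kb in all 6 libraries. Plagl1 (chromosome 10, 13090832 to 13131694) was 697.8 to 1102.8 kb and Ndn (chromosome 7, 62348277 to 62349928) 605.1 to 707.1 kb from the nearest H3K9me2 domain. Of the other imprinted genes, 2 of 22 paternally expressed and 2 of 20 maternally expressed ones had at least 0.5 of the body covered in some H3K9me2 library, as had 1 of 17 IGF axis genes.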

How the data were processed

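Counts were whole numbers deposited by the authors per gene and library, and the normalized table, a signal that the authors made per gene and library, was not used for tests. The authors' comparison table holds their log2 fold change, p-value and adjusted p-value, with limits of 0.5 and 0.1 per the file headers and names. Each deposited domain list holds the authors' score, used only to describe or filter domains; how it was made is not stated in the labels. Domain boundaries were multiples of 3 kb (H3K9me2) and 4 kb (LaminB1). Programs listed in the submitters' processing notes are DESeq2 1.20, featureCounts, STAR 2.7 and Bowtie 1.2.2, with builds mm10, dm6 and GRCm38. Which did what, and the domain caller, are not given in the sources at hand. RNA was made into libraries with SMART-seq2 from polyadenylated RNA, per the labels' protocols, which keeps no strand.

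The counts entered edgeR 4.0.16 (R 4.3.3) with these settings (default expression filter, TMM scaling, robust quasi-likelihood, genotype by the labels, two-sided, Benjamini-Hochberg over all genes tested, threshold 0.05). SE is the absolute log2 fold change divided by the square root of the F statistic. The fit was tested on simulated data. DESeq2 1.42.0, its size factors, no low-count filter, a replicate block, leaving out each library or both doubtful ones, and exchanging these were alternatives. The check of the authors' grouping used genes with a mean normalized signal of at least 20. Domain cover was computed in Python 3.11.15 with pandas 2.3.3 for the 13572 tested genes (89.1%) located on GRCm38.p6. The score of domains limited one alternative, to those at or above the library's median. Exon lengths were not used here, so levels were not compared between genes. The 8 input samples were not used. For the domain lists the depth is unknown.

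Named genes were all members, up to 4 genes of each other list by lowest p, list genes of the members' loci, Prdm16, Xist, Ifit3, Myod1 and Des, and the 3 nearest genes by likeness. Peg10, Igf1 and Igf2bp1 fall outside this rule and were chosen after their values were seen. The members and all lists were chosen with earlier results of these data known.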

Additional observations from a re-analysis of the deposited data

How the results depend on the processing

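No member was called by edgeR under any alternative run, or by DESeq2 as labelled. The authors' deposited table, whose p-values DESeq2 matched under the exchange, calls Dlk1 under its own limits of 0.5 and 0.1. The authors' adjusted p for Dlk1 there, 0.0087, is under 0.05 too. Genes called over the whole table numbered 0 as labelled, 1 with DESeq2, 25 without the low-count filter, 1 with the replicate block, 93 without both doubtful libraries (1 Prdm16 library left), 182 with these exchanged, and 0 to 4 when single libraries were left out, the 4 being without Prdm16 replicate 1. The cause was not tested. Of 109 values of single members, 98 kept their direction and their side of the threshold and 11 reversed. Meg3 reversed to -0.28, -0.0039 and -0.02 without WT replicate 1, WT replicate 3 and Prdm16 replicate 2, and to -0.053 with the exchange, and reached 0.77 without WT replicate 2. H19 reversed to 0.60, 0.41 and 0.046 without WT replicate 2, Prdm16 replicate 1 and both doubtful libraries, and was -0.73 without Prdm16 replicate 2. Ndn reversed to -0.083 without WT replicate 1. The exchange also reversed Igf2 (-0.13), Mest (0.21) and Cdkn1c (0.11). The labels do not pair replicate numbers. Libraries of the same number deviated with a correlation over 15240 genes of 0.21 for number 1 and -0.20 for number 2, and the replicate block gave Dlk1 -1.54, Mest -0.66 and Meg3 0.32, calling no member. Members covered by H3K9me2 in some library fell from 2 to 1, Grb10, when domains under the library's median score were left out, because the Peg3 domain scored 20.63 against a median of 24.49. For Igf2, at 8 to 14 counts a library, a difference of the size seen was not detectable at this depth.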

Other observations

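Genes that keep imprints through cell division were also measured. Of 15 such genes 13 were tested, 7 with a log2 fold change above 0 and 6 below, with a median of 0.07, and none was called by edgeR. Those with the lowest p were Ezh2 (-0.47), the catalytic subunit of Polycomb complex PRC2, Ctcf (-0.28), the insulator protein that binds the H19 and Igf2 control region, Ehmt1 (-0.24), the H3K9 methyltransferase GLP, and Trim28 (0.43), the corepressor recruited by ZFP57. With the 2 doubtful libraries exchanged Ezh2 reversed to 0.36, and Ctcf, Ehmt1 and Trim28 had -0.13, -0.03 and 0.58. Ctcf had 39.0, 35.1 and 32.6 CPM in WT and 28.7 and 29.8 CPM in Prdm16, by the labels. Both Prdm16 libraries lay below every WT library as labelled, as for 8.96% of all genes tested. Trim28 had 45.9, 22.6 and 35.2 CPM in WT and 29.9 and 63.8 CPM in Prdm16, with the groups overlapping.

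Family relatives of the members gave 8 tested genes of 9, 3 above 0 and 5 below, with a median of -0.15 and none called. The lowest p belonged to Plagl2 (-0.54), the relative of Plagl1, Cdkn1b (-0.40), the inhibitor p27, Maged2 (-0.20), a relative of necdin, and Grb14 (-0.15), the relative of Grb10. The exchange gave them -0.03, -0.46, -0.91 and 0.13, so Grb14 reversed. Plagl2 had 10.5, 7.60 and 9.33 CPM in WT and 6.19 and 6.39 CPM in Prdm16. The authors' deposited table calls Maged2 downregulated at -0.78. Maged2 was wholly covered by H3K9me2 in WT replicates 1 and 2 and Prdm16 replicate 1, and it lies on the X chromosome. Xist, the RNA of the inactive X, had 2.66 CPM in Prdm16 replicate 2 against 335 to 526 CPM in the other RNA libraries. Maged2 had 467, 663 and 258 CPM in WT and 487 and 317 CPM in Prdm16, so its lowest library was WT replicate 3. Any part of H3K9me2 or of the X in the Maged2 values was not tested.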
